A study of Mus musculus with 2 samples.

Results

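Retained-intron transcripts are annotated transcripts of a gene in which sequence that is spliced out of its coding transcripts stays in an exon. Here they were taken as the rows of the deposited expression table with that transcript type and an expression of at least 1 FPKM (fragments scaled to the length of the transcript and the size of the library) in either library. The type was carried by 19819 of 88702 transcripts, 18882 of these were above 0 in a library, and 2589 of them (13.1%), in 1862 genes, met the limit. The members were thus chosen by their level in the same 2 libraries, and every level given for them is a description. Of the 2589, 1758 reached 1 FPKM in both libraries, 429 through the Musclin library alone and 402 through the vehicle library alone. At the limit, a Mat2a transcript (ENSMUST00000206783) with 1.00 FPKM with Musclin and 0.861 with vehicle was just inside. A Glmp transcript (ENSMUST00000193646) with 1.00 and 0.953 FPKM, under the limit before rounding, was just outside.

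The cells were fibro/adipogenic progenitors (FAPs), stromal cells of skeletal muscle that can form fibroblasts or adipocytes, freshly sorted from wild-type (WT) mouse muscle and grown as primary cells in a serum-containing medium. Musclin is a peptide that muscle secretes, and one group received mouse recombinant Musclin at 1 µM for 24 h. The other received an equal amount of vehicle for the same 24 h. There was 1 library per group, so no difference below could be checked between replicates, and none was tested. The column read as vehicle is headed BSA and was assigned by elimination, so each direction rests on that assignment. Age, sex and number of animals, the pooling of cultures, any selection of polyadenylated RNA and the strandedness of the libraries are not named in the sources used here.

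Introns are removed by the spliceosome, which recognises a 5' splice site that nearly always starts with GT and a 3' splice site that ends with AG. A transcript that keeps an intron between coding bases usually meets a premature stop codon, and it is either held in the nucleus, where it may be spliced later, or exported and removed by nonsense-mediated decay. Retention is known as a control of genes for splicing regulators, among them the CLK kinases and the SR proteins, which adjust their own splicing in this way. In an annotation-based table such as this one, reads from exons that a retained-intron transcript shares with coding transcripts are divided between them. A retained-intron level is therefore the authors' estimate for the whole transcript and not a reading of the intron alone.

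The introns that the results turn on are shown first. An intron of a coding transcript was called retained where 1 exon of the member covered all of it, with exons and sequence from the GENCODE vM21 annotation of GRCm38. Each intron below lies between coding bases, is written 5' to 3', and belongs to a member whose levels follow. Capitals mark the 2 bases at each end and the first stop codon that is in frame with the exon before. Tpi1, Apeh, Hsp90ab1 and Tbl3 stand for members that were lower with Musclin, Alas1, Cpne1 and Tbc1d20 for members that were higher without a like difference in their coding transcripts, Cxcl1 for members that were higher together with their coding transcripts, and Fth1 for the most abundant member.
Tpi1 intron 2, chr6:124812706-124812789, minus strand: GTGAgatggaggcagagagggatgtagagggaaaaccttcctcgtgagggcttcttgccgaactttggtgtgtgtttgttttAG
Apeh intron 6, chr9:108092414-108092553, minus strand: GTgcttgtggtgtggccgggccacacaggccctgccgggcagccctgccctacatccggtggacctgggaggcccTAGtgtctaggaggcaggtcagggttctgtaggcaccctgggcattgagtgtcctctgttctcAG
Hsp90ab1 intron 2, chr17:45571620-45571764, minus strand: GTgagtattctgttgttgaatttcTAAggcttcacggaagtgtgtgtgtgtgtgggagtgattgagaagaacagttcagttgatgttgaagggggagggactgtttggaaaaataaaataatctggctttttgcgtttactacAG
Tbl3 intron 6, chr17:24705318-24705396, minus strand: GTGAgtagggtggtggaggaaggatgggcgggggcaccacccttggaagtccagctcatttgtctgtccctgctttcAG
Alas1 intron 4, chr9:106241339-106241635, minus strand: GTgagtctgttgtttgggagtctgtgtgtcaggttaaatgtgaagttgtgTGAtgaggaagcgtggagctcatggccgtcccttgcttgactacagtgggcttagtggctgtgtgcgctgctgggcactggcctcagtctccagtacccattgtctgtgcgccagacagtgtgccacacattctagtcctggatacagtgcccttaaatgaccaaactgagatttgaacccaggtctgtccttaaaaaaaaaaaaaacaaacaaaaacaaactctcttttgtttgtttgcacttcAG
Cpne1 intron 4, chr2:156078824-156078899, minus strand: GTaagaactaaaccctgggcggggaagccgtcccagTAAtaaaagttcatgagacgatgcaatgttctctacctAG
Tbc1d20 intron 4, chr2:152308176-152308329, plus strand: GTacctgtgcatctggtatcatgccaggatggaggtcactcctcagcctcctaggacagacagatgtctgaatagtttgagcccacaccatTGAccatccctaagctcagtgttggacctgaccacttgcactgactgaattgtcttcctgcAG
Cxcl1 intron 1, chr5:90891381-90891469, plus strand: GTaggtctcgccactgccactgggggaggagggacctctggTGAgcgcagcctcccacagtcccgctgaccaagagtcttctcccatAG
Cxcl1 intron 2, chr5:90891594-90891708, plus strand: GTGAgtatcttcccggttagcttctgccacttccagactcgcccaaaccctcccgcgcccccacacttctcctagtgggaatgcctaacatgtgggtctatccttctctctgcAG
Fth1 intron 2, chr19:9984328-9984559, plus strand: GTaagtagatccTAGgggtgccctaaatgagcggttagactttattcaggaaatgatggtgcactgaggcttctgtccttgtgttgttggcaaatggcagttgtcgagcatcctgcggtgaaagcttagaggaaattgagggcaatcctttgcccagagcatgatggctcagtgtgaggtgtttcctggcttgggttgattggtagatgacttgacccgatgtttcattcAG
In Tpi1, Tbl3 and the second Cxcl1 intron the G of the splice site completes a codon and the stop follows at base 2 of the intron. In the others the stop starts between base 13 (Fth1) and base 92 (Tbc1d20).

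Depth was close in both libraries, at 6.69 Gb (Musclin) and 6.76 Gb (vehicle) of aligned bases, or 22456675 and 22677082 fragment equivalents of 298 bases. The label of the cells was checked against markers. Of 18 FAP markers 15 reached 1 FPKM, with Pdgfra at 87.2 FPKM with Musclin and 79.9 with vehicle and Ly6a at 284 and 223 FPKM. Leukocyte markers summed to 21.5 and 22.8 FPKM (5 of 11 listed genes at 1 FPKM or more), myogenic markers to 2.94 and 3.86 FPKM (2 of 7), and endothelial and mural markers to 20.4 and 31.8 FPKM (4 of 10). Of their defining genes, Ptprc was at 0.383 and 0.644 FPKM, Adgre1 at 0.133 and 0.120 FPKM, Myod1 at 0.0479 and 0.0237 FPKM, Pecam1 at 0.185 and 0.103 FPKM and Cdh5 at 0.891 and 1.15 FPKM, while the macrophage gene Cd68 was at 3.03 and 2.86 FPKM. None of these 3 lists holds a retained-intron member, and Mfap5, which encodes a microfibril protein, is the FAP marker that does (7.80 and 7.96 FPKM).

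Taken over all members, the retained-intron level was nearly the same in both libraries. Members summed to 11938 FPKM with Musclin and 11682 with vehicle, which is 3.19% and 3.15% of the FPKM of the table. Their median level was 1.68 and 1.63 FPKM. On log2(FPKM + 1), a scale that understates the differences of low transcripts, the median log2 ratio of Musclin over vehicle was 0.01, and the 5th and 95th percentiles were -0.85 and 0.83. At 2-fold or more on that scale, 93 members of 89 genes were higher with Musclin (3.59%) and 94 members of 87 genes were lower (3.63%). The background over all 23162 transcripts at 1 FPKM or more was 6.11% higher and 5.89% lower, with a median of -0.01 and percentiles of -1.09 and 1.11. Over coding transcripts alone the shares were 6.37% and 5.92%, over nonsense-mediated decay transcripts 13.4% and 15.1%, and over processed transcripts 6.35% and 6.24%. The remaining 92.8% of members lay within 2-fold.

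**Figure D1:**
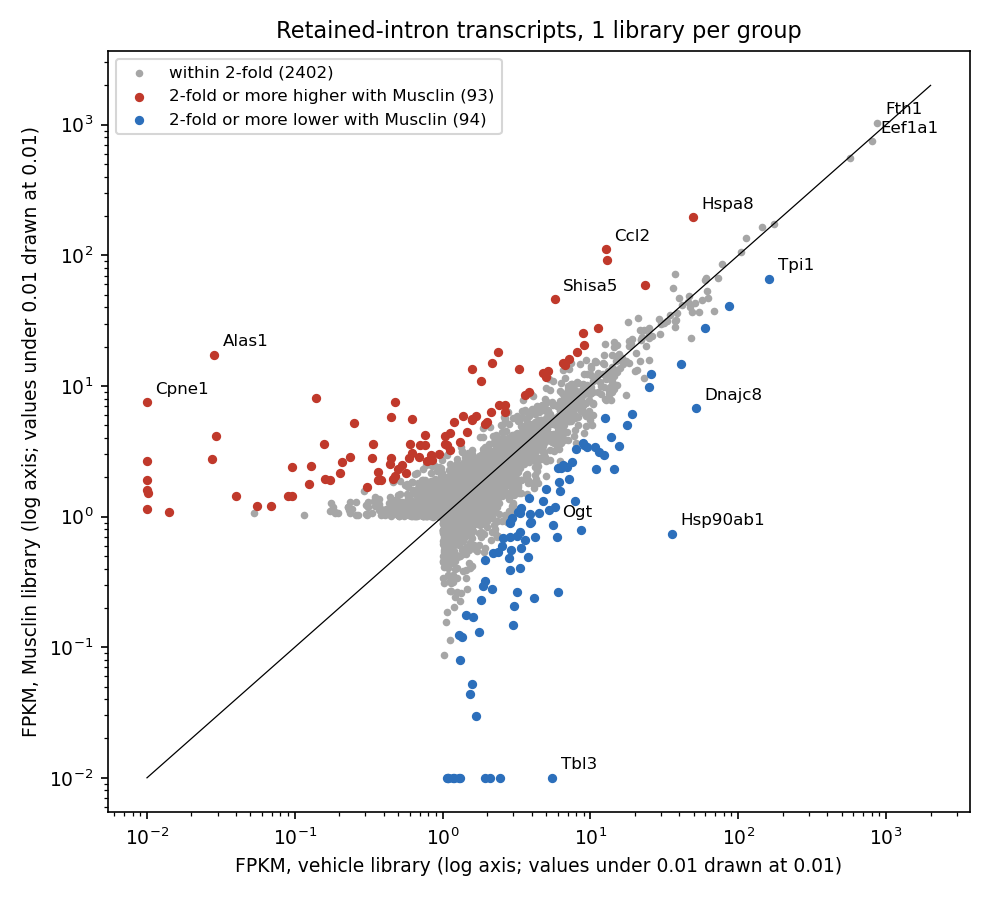
FPKM of each of the 2589 retained-intron transcripts in the vehicle library (x axis, log) and the Musclin library (y axis, log), with values under 0.01 FPKM drawn at 0.01 and equal levels on the line. The 93 red points are 2-fold or more higher and the 94 blue points 2-fold or more lower with Musclin on log2(FPKM + 1), and most members lie along the line.

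The share past 2-fold depended on the level, and the scale favours this. On log2(FPKM + 1) a transcript at 1 FPKM passes 2-fold only where the other library holds none of it. How much of the rise among members comes from the scale was not tested. Among members whose higher library was at 1 to 2 FPKM, 2.87% of 1322 were past 2-fold, against 21.5% of the 181 members at 10 FPKM or more. Nonsense-mediated decay transcripts, the other class with premature stops, held more at each level, from 20.4% of 358 at 1 to 2 FPKM to 36.8% of 117 at 10 FPKM or more. Coding transcripts differed less between levels, with 11.3% of 3200 and 10.4% of 6047 at the same ends. Retained-intron transcripts were thus below coding transcripts at low levels and above them at high levels. These shares come from 1 library a group, and a difference between classes was not tested.

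**Figure D2:**
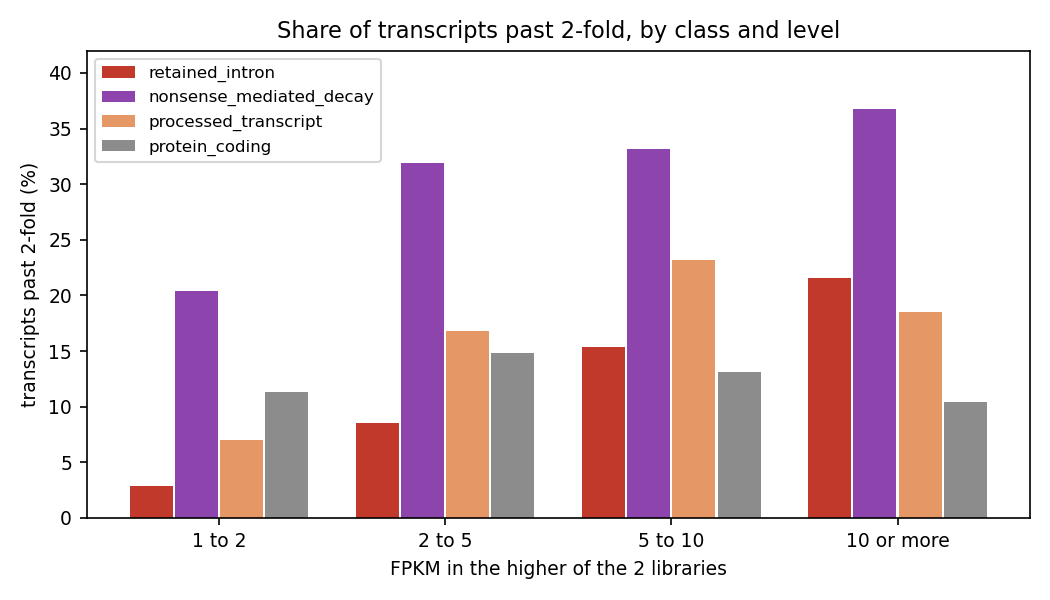
Share of transcripts past 2-fold on log2(FPKM + 1) in either direction (y axis, percent) by FPKM in the higher library (x axis), for 4 transcript classes. For retained_intron transcripts the bars go from 2.87% at 1 to 2 FPKM to 21.5% at 10 FPKM or more, while those of nonsense_mediated_decay transcripts are the tallest at each level.

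Each of the 93 higher and 94 lower members had a ratio of fragment equivalents whose 95% exact Clopper-Pearson interval excluded 1, an interval that covers counting error only. They were picked for a large ratio in the same values, so the intervals lend them no independent support. Both libraries reached 1 FPKM for 40 of the higher and 40 of the lower members. The rest met the floor only through the library where they were high. Among those, 4 higher and 11 lower ones were listed at 0 in the other library. Of the higher members 54, and of the lower ones 51, are marked significant in the authors' deposited table, and 39 and 43 carry a p-value of 1. By the same mark the authors' deposited table calls 263 members (10.2% in both directions together), 131 of them higher and 132 lower. Over all 23162 transcripts at 1 FPKM or more it calls 1383 higher (5.97%) and 1403 lower (6.06%). Together these shares exceed 10.2%, so members were called less often than all transcripts. The test behind that mark is not named in the sources used here.

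A few housekeeping genes held the most abundant members. A transcript of Fth1 (ENSMUST00000235129, chr19:9982747-9984941, GRCm38), which encodes the ferritin heavy chain that stores iron, was at 1039 FPKM with Musclin and 873 with vehicle. It keeps the intron printed above, and 25.7% of its bases lie outside coding exons. A second Fth1 member (ENSMUST00000237316) was at 557 and 567 FPKM, while the coding transcripts of the gene summed to only 164 and 215 FPKM. The elongation factor gene Eef1a1 had a member (ENSMUST00000144523) at 751 FPKM with Musclin and 801 with vehicle, beside coding transcripts at 2796 and 2926 FPKM. These members were within 2-fold in both libraries.

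Members of ribosomal protein genes were also abundant, among them Rpl7 and Rpl3. The Rpl7 member (ENSMUST00000125005) was at 164 and 145 FPKM and the Rpl3 member (ENSMUST00000187578) at 106 and 104 FPKM. Ptbp1, which encodes a splicing repressor that binds polypyrimidine tracts, had a member (ENSMUST00000165153) at 135 FPKM with Musclin and 113 with vehicle. Its coding transcripts were lower, at 34.0 and 46.9 FPKM. The autophagy gene Gabarap (85.6 and 77.3 FPKM), the calponin gene Cnn3 (66.6 and 73.3 FPKM) and the noncoding host gene Mir100hg (67.1 and 60.6 FPKM) also had members within 2-fold. Fth1, Eef1a1 and the ribosomal protein genes have processed copies elsewhere in the genome, so the placement of their reads is uncertain.

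Of the 12 most abundant members 2 were past 2-fold. Hspa8, which encodes the constitutive heat shock protein HSC70, had a member (ENSMUST00000149936, chr9:40801276-40805199) at 195 FPKM with Musclin and 49.1 with vehicle. The ratio of its fragment equivalents was 3.97 (95% interval 3.83 to 4.13), while the coding transcripts were at 562 and 685 FPKM. That transcript retains 5 introns, which hold the small nucleolar RNA genes Snord14c, Snord14d and Snord14e. Whether reads of those small RNAs add to its level was not tested. The other was the Tpi1 member described below.

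Of the 10 members with the highest ratios 3 came from chemokine genes and 7 from genes whose coding transcripts were within 2-fold. Alas1 encodes the enzyme that starts heme synthesis, and its member (ENSMUST00000214249, chr9:106238119-106247867) was at 17.3 FPKM with Musclin and 0.0285 with vehicle. That rests on 659 against 1 fragment equivalents, a ratio of 608 (95% interval 119 to 26324). The coding transcripts of Alas1 were at 23.5 and 19.4 FPKM. For Cpne1, a calcium-dependent membrane-binding protein, the member (ENSMUST00000142975, chr2:156071845-156111888) was at 7.53 FPKM with Musclin and was listed at 0 with vehicle, with coding transcripts at 23.3 and 32.5 FPKM. In both genes next to none of the vehicle reads were assigned to that member. Outside coding exons lie 17.5% (Alas1) and 2.19% (Cpne1) of the bases of these members, so both levels depend on how shared reads were divided.

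Shisa5, which encodes a membrane protein of the endoplasmic reticulum, had a member (ENSMUST00000198639, chr9:109038602-109057724) at 46.4 FPKM with Musclin and 5.73 with vehicle, a ratio of 8.09 (95% interval 7.12 to 9.25). Its coding transcripts were at 73.8 and 85.8 FPKM. Plcb3, a phospholipase C gene, had a member (ENSMUST00000237726) at 8.11 and 0.140 FPKM beside coding transcripts at 18 and 21.2 FPKM. The zinc transporter gene Slc39a7 had a member (ENSMUST00000167145) at 7.51 and 0.478 FPKM, and it lies within a longer overlapping transcript of another gene on the same strand. With the other member of Slc39a7 (15.5 and 21.8 FPKM) the sum was 23.0 and 22.3 FPKM. Tbc1d20 encodes an activator of Rab1 GTP hydrolysis. Its member (ENSMUST00000140482, chr2:152293872-152313996) was at 15.0 and 2.17 FPKM, and its coding transcripts were at 17.0 and 33.4 FPKM, the other way round. Tmem214 showed the same opposition, with a member (ENSMUST00000202951) at 13.6 and 1.59 FPKM and coding transcripts at 4.96 and 8.64 FPKM.

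The remaining 3 of the highest 10 came from chemokine genes whose coding transcripts were higher as well. The Ccl2 member (ENSMUST00000124479, chr11:82035610-82037450) was at 111 FPKM with Musclin and 12.8 with vehicle, a ratio of 8.72 (95% interval 7.76 to 9.82). Ccl2 attracts monocytes, and its coding transcripts were at 581 and 72.7 FPKM. The member of the neutrophil attractant gene Cxcl5 (ENSMUST00000202380, chr5:90759360-90761624) was at 91.6 and 12.9 FPKM, a ratio of 7.13 (6.52 to 7.81), beside coding transcripts at 628 and 29.7 FPKM. For the neighbouring Cxcl1 (ENSMUST00000201245, chr5:90891243-90893113), whose member is a single exon over all 3 introns, the levels were 18.1 and 2.37 FPKM and the coding transcripts were at 155 and 6.89 FPKM. The retained-intron ratio was close to the coding ratio in Ccl2 and below it in Cxcl5 and Cxcl1. Thus the retained-intron share of the gene was 16.1% with Musclin and 15.0% with vehicle in Ccl2, 12.7% and 30.2% in Cxcl5, and 10.5% and 25.6% in Cxcl1.

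The 10 members with the lowest ratios came from 10 genes, and in 9 of these the coding transcripts were not lower with Musclin. The member of Hsp90ab1 (ENSMUST00000151306, chr17:45571018-45573271), which encodes the cytosolic chaperone HSP90 beta, was at 0.739 FPKM with Musclin and 35.5 with vehicle. Its fragment equivalents were 48.1-fold lower (95% interval 27.2 to 88.5), while the coding transcripts were at 668 and 629 FPKM. With its other member (10.4 and 8.30 FPKM) the retained-intron sum was 11.2 and 43.8 FPKM. Dnajc8 encodes a J-domain protein found with the spliceosome. Its member (ENSMUST00000142281, chr4:132535567-132553661) was at 6.79 and 51.8 FPKM, 7.62-fold lower (6.73 to 8.67), and its coding transcripts were at 67.3 and 28.2 FPKM. In Dnajc8 the retained-intron form exceeded the coding form with vehicle and was far below it with Musclin.

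The Tbl3 member (ENSMUST00000046534, chr17:24700458-24707631), from a gene of ribosomal RNA processing, was listed at 0 with Musclin and was at 5.52 FPKM with vehicle. The Apeh member (ENSMUST00000194915, chr9:108085414-108094466), from a peptidase gene, was at 0.263 and 6.05 FPKM. In Pfdn6, a prefoldin subunit that helps fold new proteins, the member (ENSMUST00000173363) was at 0.786 and 8.70 FPKM. Saraf, a brake on store-operated calcium entry, had a member (ENSMUST00000211664) at 2.31 and 14.5 FPKM, and the actin-bundling gene Triobp one (ENSMUST00000109688) at 1.32 and 7.85 FPKM. All 5 genes had higher coding levels with Musclin, from 10.6 against 7.84 FPKM in Tbl3 to 52.7 against 26.7 FPKM in Saraf.

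The lipase maturation gene Lmf2 (ENSMUST00000230112; 0.239 and 4.17 FPKM) and the centrosome linker gene Cep250 (ENSMUST00000148191; 0.699 and 5.95 FPKM) also had lower members. Their coding transcripts were at 10.6 and 3.59 FPKM and at 11.9 and 5.0 FPKM. Each gene has 1 other member, higher with Musclin and within 2-fold (17.3 and 13.9 FPKM in Lmf2, 5.12 and 2.81 FPKM in Cep250), so both members together were at 17.6 and 18.1 FPKM in Lmf2 and 5.82 and 8.76 FPKM in Cep250. Pck2, the mitochondrial enzyme that makes phosphoenolpyruvate, differed from these. Its member (ENSMUST00000226770) was at 3.45 and 15.6 FPKM, and its coding transcripts were lower with Musclin too, at 7.40 and 26.2 FPKM.

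Members past 2-fold were set against the coding transcripts of the same gene. Of the 93 higher members 69 had a summed coding level within 2-fold, 18 had one that was 2-fold or more higher and 4 one that was 2-fold or more lower, and 2 belong to genes without coding transcripts in the table. Of the 94 lower members the coding sum was within 2-fold in 68, lower in 15 and higher in 11. Of all 2535 members with a coding level in their gene, 63 belong to genes whose coding sum was 2-fold or more higher and 71 to genes where it was lower, so coding sums past 2-fold were more frequent among members past 2-fold than over all members. Of the 63, 40 were above 0 and 18 (28.6%) past 2-fold, with a median log2 ratio of 0.46 beside a median coding ratio of 1.22. Of the 71, 57 were below 0 and 15 (21.1%) past 2-fold, with medians of -0.64 and -1.27. In 59 of the 63 and 67 of the 71 the retained-intron ratio was less far out in the direction of the coding ratio. Picking members by the coding ratio favours this, and the pseudocount of 1 shrinks the ratios of low transcripts more.

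The retained-intron share, the FPKM of a gene's members as a part of that FPKM plus its coding FPKM, could be computed for 1831 genes. Its median was 12.3% with Musclin and 12.1% with vehicle, with quartiles of 4.59% to 29.8% and 4.52% to 29.9%. Summed over these genes, the share was 10.1% in both libraries. In 1504 genes (82.1%) it differed by under 10 percentage points. The share passed 50% in 195 genes with Musclin and 186 with vehicle, 137 of them in both. Among the highest shares in genes with 3 FPKM or more of coding transcripts were those of Fth1 (90.7% and 87.0%), Uimc1, a DNA damage response gene (78.6% and 83.5%), the mitochondrial protease gene Htra2 (79.3% and 79.4%), the splicing factor gene Rbm5 (78.3% and 78.2%) and Rps16 (77.7% and 76.7%). The share was close between the libraries in each of these genes, with the widest gap in Uimc1.

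**Figure D3:**
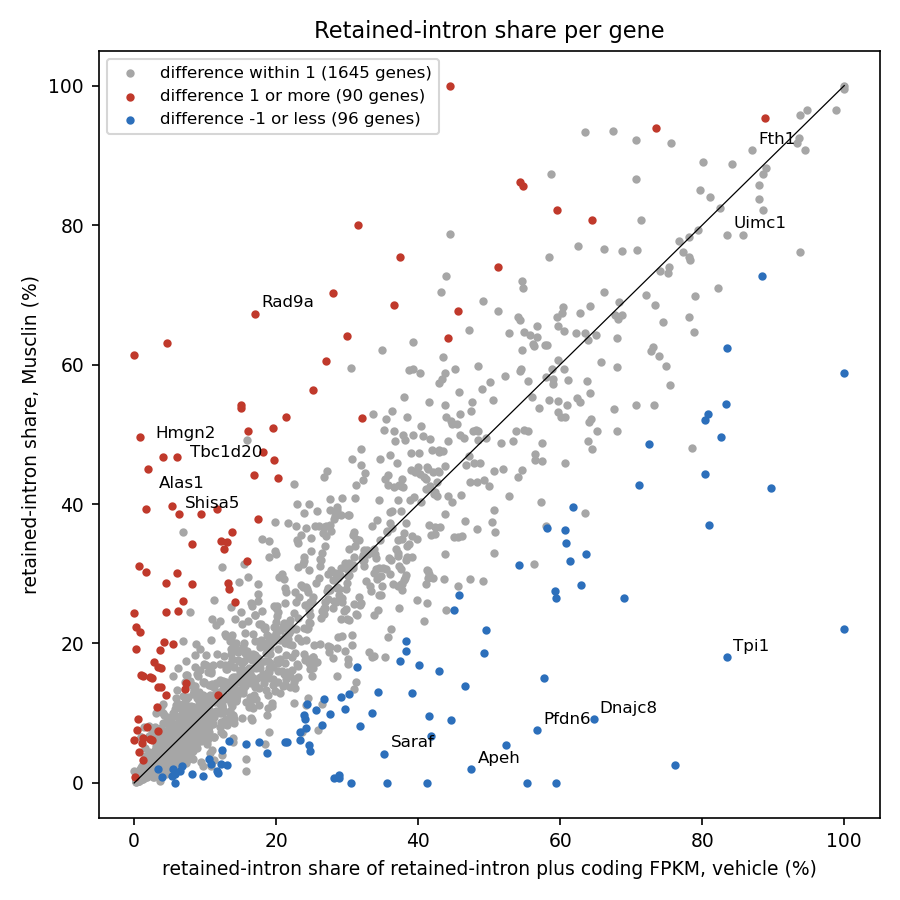
Retained-intron share of retained-intron plus coding FPKM for 1831 genes, with the vehicle library on the x axis and the Musclin library on the y axis (both in percent) and equal shares on the line. Red and blue points are the 90 and 96 genes whose retained-intron log2 ratio differs from the coding log2 ratio by 1 or more upward or downward, such as Alas1 (45% against 1.99%) and Tpi1 (18% against 83.5%).

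The retained-intron log2 ratio exceeded the coding log2 ratio by 1 or more in 90 genes (4.92%) and was below it by 1 or more in 96 (5.24%). The background for all 2801 genes with noncoding forms of this kind (retained-intron, nonsense-mediated decay and processed transcripts together) was 8.28% and 8.75%. In 75 of the 90 and 80 of the 96 genes both forms lay on opposite sides of a ratio of 1. Picking genes by this difference favours opposite sides, and both forms share reads, so these counts are no separate result. The total of the gene was within 2-fold in 84 of the 90 and 89 of the 96, near the 96.8% of all 1831 genes. Of the 90 genes, the retained-intron form alone passed 2-fold in 39, the coding form alone in 9, both in 5 and neither in 37. For the 96 genes the numbers were 41, 14, 9 and 32.

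Hmgn2, which encodes a nucleosome-binding protein, had the widest upward difference of the named genes. Its retained-intron form was at 11 FPKM with Musclin and 1.82 with vehicle, and its coding form was at 12.5 and 42.6 FPKM, so the share was 46.7% and 4.10%. In Rad9a, a subunit of the checkpoint clamp at damaged DNA, the retained-intron form was at 7.15 and 2.65 FPKM and the coding form at 3.48 and 13.0 FPKM (67.3% and 17.0%). Morc3, a chromatin ATPase gene, had shares of 30.3% and 1.67%, with coding transcripts at 11.9 and 14.8 FPKM. In Hmgn2 and Rad9a the coding form was lower and the retained-intron form higher with Musclin, while in Alas1, Plcb3, Shisa5 and Morc3 the coding form was within 2-fold.

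Tpi1, the glycolytic enzyme that interconverts the triose phosphates, had the widest downward difference. Its member (ENSMUST00000154883, chr6:124810587-124814158), which keeps the 84-base intron printed first above, was at 66.3 FPKM with Musclin and 162 with vehicle. Its coding transcripts were at 302 and 32.1 FPKM, so the share was 18% and 83.5%, while the whole gene was at 370 and 195 FPKM. Only 5.41% of the bases of that member lie outside coding exons. Sumo2, which encodes a protein modifier, had a retained-intron form at 1.20 and 3.27 FPKM and a coding form at 93.6 and 36.6 FPKM (1.27% and 8.19%). The share was 9.17% and 64.7% in Dnajc8, 1.94% and 47.5% in Apeh and 4.21% and 35.2% in Saraf.

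**Figure D4:**
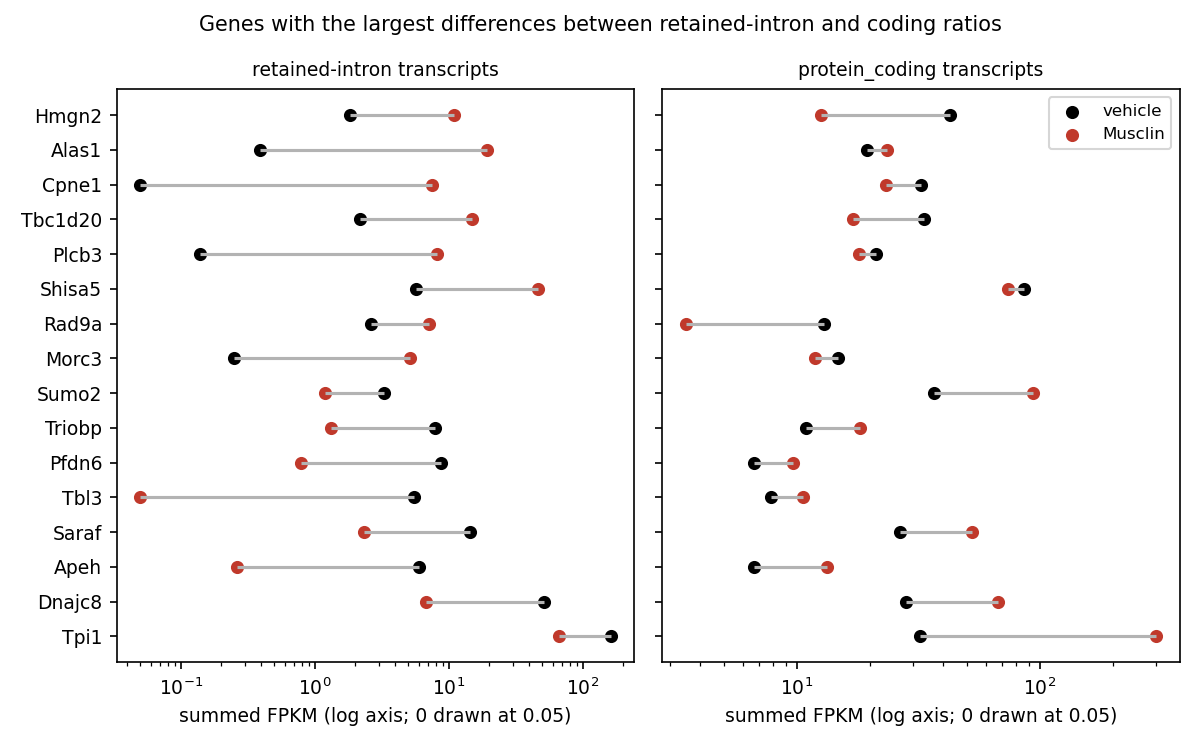
Summed FPKM of the retained-intron transcripts (left) and of the protein_coding transcripts (right) with vehicle (black) and Musclin (red), on log axes with 0 drawn at 0.05, for 8 named genes at the upper and 8 at the lower end of the difference between both ratios. In all of these genes but Alas1 the red and black points change places between the panels, which picking genes by this difference favours.

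In reference exons, 2574 members had the same span, exon number and length as in GENCODE vM21. Of these 1337 (51.9%) covered at least 1 whole intron of a coding transcript, 798 of them exactly 1 and 539 more than 1. The other 1237 covered none, 42 of them in genes without a coding transcript in the table, and 1234 had bases outside coding exons. Members past 2-fold shared more exon sequence with coding transcripts than the rest. The median share of bases outside coding exons was 21.7% in the 93 higher and 20.6% in 92 lower members, against 44.2% in 2389 members within 2-fold. Under 10% of bases lay outside coding exons in 25.8% of higher members and 22.8% of lower members, against 8.04% within 2-fold. Among the members named for the highest ratios these were Cpne1 (2.19%), Tbc1d20 (4.41%), Tmem214 (6.94%), Plcb3 (7.81%) and Shisa5 (9.60%). Among those with the lowest ratios they were Tbl3 (2.86%), Lmf2 (3.84%) and Apeh (5.56%). The others at both ends had from 12.5% (Pck2) to 49.3% (Cxcl1). The less of its own sequence a member has, the more its level depends on how shared reads were divided, and the part of this in the ratios was not tested.

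The retained introns were short. The 2224 distinct introns of 1106 genes had a median length of 303.5 bases (quartiles 132 and 743.5), against 994 bases (308 and 2599.5) for 23451 other introns of the same genes. Of retained introns 28.6% were at most 150 bases long, against 14.5% of the others. First introns made up 16.4% and 17.5%, and last introns 16.8% and 15.2%. Median GC content of the retained introns was 51.3% (quartiles 44.3% and 57.2%). Their ends were GT and AG in 97.8%, 27 introns started with GC and ended with AG, and 4 had the ends AT and AC.

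**Figure D5:**
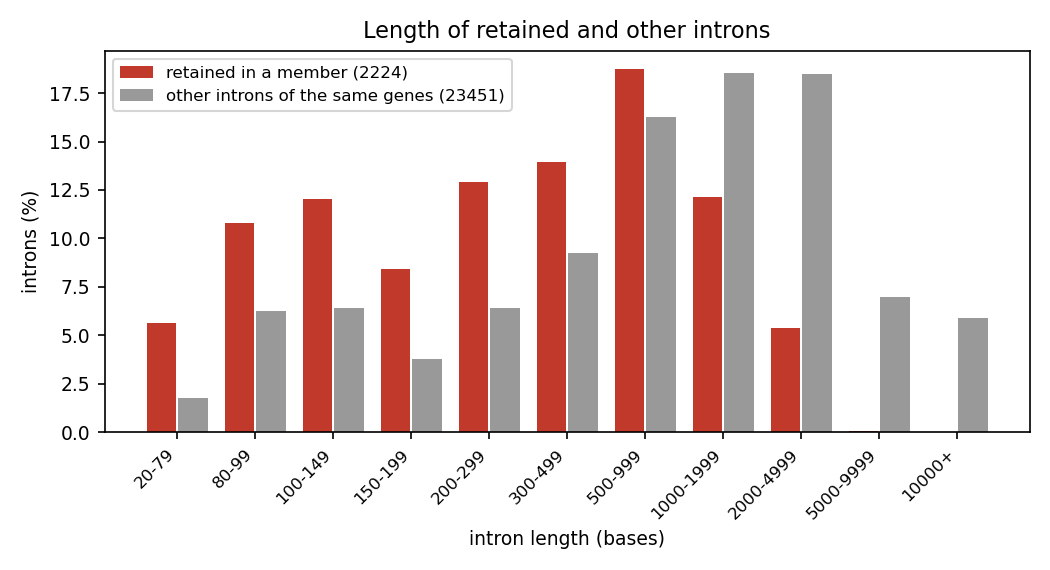
Length in bases (x axis, classes of unequal width) of the 2224 introns retained in a member (red) and the 23451 other introns of coding transcripts of the same genes (grey), as a percentage of each group (y axis). Retained introns are the more frequent group in every class under 1000 bases and the less frequent one above, which calling only wholly covered introns favours.

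Of the 2224 introns 2028 (91.2%) lay between coding bases, and 1844 of these (90.9%) held a stop codon in frame with the exon before. The first such stop began a median of 35 bases into the intron, and 82.2% began within 100 bases. In 323 introns (15.9%) it lay at bases 2 to 4, where the 5' splice site itself supplies the codon, as TGA in 159 and as TAA or TAG in 164. The Tpi1 and Tbl3 introns printed above are of the first kind. Introns of higher members had a median length of 162 bases, those of lower members 302 bases and those of members within 2-fold 317 bases, with median GC contents of 53.0%, 52.1% and 51.3%.

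Genes of the splicing machinery, where retention is a known form of control, had many members, whose counts past 2-fold are read against the 3.59% higher and 3.63% lower over all members. All 12 members of the CLK and SR protein kinase genes were within 2-fold, with a median log2 ratio of -0.01. The Clk1 member with the widest ratio (ENSMUST00000123580) was at 3.43 FPKM with Musclin and 4.51 with vehicle, and it covers no whole intron of a coding transcript. Clk4 (ENSMUST00000148467), whose transcript keeps 5 introns, 4 of them between coding bases, was at 3.17 and 3.51 FPKM. Of 48 members from genes of SR and related splicing proteins 1 was higher and none lower, with a median of -0.02. That was a member of Thrap3 (ENSMUST00000168568) at 2.99 and 0.942 FPKM. Srsf11 (ENSMUST00000152274) was at 5.50 and 9.92 FPKM, inside the limit.

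Among 48 members from genes of hnRNPs and other RNA-binding proteins 2 were higher and 2 were lower (median -0.07). The higher ones were a Ptbp1 member (ENSMUST00000168988) at 4.23 and 0.765 FPKM and an Hnrnpl member (ENSMUST00000174755) at 3.60 and 0.601 FPKM. Of 28 members from genes of the spliceosome core 1 was higher and 1 lower, both in Snrnp70, which encodes a protein of the U1 particle (ENSMUST00000211366 at 13.0 and 5.18 FPKM, ENSMUST00000211290 at 0.132 and 1.77 FPKM).

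A list of 24 genes known for detained introns with feedback held 45 members, of which 5 were lower and none higher, with a median of -0.07. Members of Ogt and Ccnl1 were among these. Ogt encodes the enzyme that adds O-linked N-acetylglucosamine to proteins, and a detained intron of its transcript is known to respond to the level of that sugar. Its 3 members were at 0.862 against 5.61 FPKM (ENSMUST00000155713), 0.125 against 1.28 FPKM (ENSMUST00000155792) and 8.75 against 13.4 FPKM (ENSMUST00000150161), all lower with Musclin. ENSMUST00000155713 covers no whole intron of a coding transcript, and whether any of these members keeps the detained intron was not tested. The coding transcripts of Ogt were lower as well, at 26.8 and 43.9 FPKM, and the retained-intron share was 26.6% and 31.6%. In the cyclin L1 gene Ccnl1, 1 member (ENSMUST00000142153) was at 2.39 and 6.91 FPKM and 1 (ENSMUST00000146284) was listed at 0 with Musclin and at 1.09 FPKM with vehicle, while its other members were within 2-fold. ENSMUST00000142153 covers 1 whole intron of a coding transcript and ENSMUST00000146284 none.

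Ribosomal protein genes held 104 members in 54 genes. None was higher and 3 were lower (median -0.01), namely those of Rps24 (ENSMUST00000223939, 4.04 and 13.7 FPKM), Rps21 (ENSMUST00000148629, 0.893 and 3.91 FPKM) and Rpl37 (ENSMUST00000227111, 0.891 and 2.86 FPKM). An Rpl3 member (ENSMUST00000188025) at 23.4 and 47.7 FPKM was just inside the limit. The coding sum was below vehicle for 81 of the 104 members, with a median log2 ratio of -0.11. Of 28 members from translation factor genes 1 was lower, an Eif5b transcript (ENSMUST00000192548) at 0.696 and 2.87 FPKM. The 12 members from genes of nonsense-mediated decay and RNA surveillance were all within 2-fold, among them a Zfc3h1 transcript (ENSMUST00000141246) at 5.03 and 10.2 FPKM.

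In genes of pathways whose coding transcripts differed between the libraries, the members mostly lay on the same side, both ratios coming from the same 2 libraries. The integrated stress response, through which eIF2 phosphorylation and ATF4 raise genes of amino acid supply, held 11 members in 9 genes. All 11 were below 0 and 6 of them past 2-fold, with a median log2 ratio of -1.14 beside a median coding ratio of -1.35. The Vldlr member (ENSMUST00000164509) was at 0.208 FPKM with Musclin and 3.04 with vehicle, beside coding transcripts at 5.77 and 16.3 FPKM. Members of Gadd45a, a growth arrest gene, were at 0.487 and 3.77 FPKM (ENSMUST00000151958) and at 0.402 and 3.33 FPKM (ENSMUST00000126194). A member of the mitochondrial serine enzyme gene Shmt2 (ENSMUST00000217682) was at 1.33 and 4.81 FPKM. Ddit3, which encodes the transcription factor CHOP, had one (ENSMUST00000134686) at 3.53 and 8.98 FPKM, and Atf4 itself one within 2-fold (ENSMUST00000230434) at 5.07 and 8.18 FPKM.

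The median retained-intron share of those 9 genes was 7.34% with Musclin and 5.50% with vehicle, so the median share did not fall with the level. The genes were split. In 2 of them the retained-intron log2 ratio exceeded the coding one by 1 or more, and in none was it below by 1 or more. The share was lower with Musclin in Vldlr (3.48% and 15.8%), Gadd45a (9.49% and 11.2%) and Shmt2 (3.56% and 4.47%). Aminoacyl-tRNA synthetase genes, which charge tRNAs with amino acids, held 16 members, of which 14 were below 0, 1 was higher and none was past 2-fold downward. The median was -0.39 beside a median coding ratio of -0.93. Of the members above 0, that of Qars was at 14.6 and 8.56 FPKM (ENSMUST00000207126). The coding list medians here were known from earlier results of these libraries, so they lend the members no independent support.

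Interferon response genes held 10 members in 7 genes. All 10 were above 0 and 6 of them past 2-fold, with a median of 1.07 beside a coding median of 1.22. The Zbp1 member (ENSMUST00000146802), from a sensor of Z-form nucleic acid, was at 5.32 FPKM with Musclin and 1.19 with vehicle, a ratio of 4.47 (95% interval 3.54 to 5.66). Its coding transcripts were at 26.8 and 2.61 FPKM. An immunoproteasome member from Psmb8 (ENSMUST00000236557) was at 3.58 and 0.157 FPKM, beside coding transcripts at only 5.27 and 4.06 FPKM. Members of Oasl2 were at 2.80 and 0.593 FPKM (ENSMUST00000201445) and 2.32 and 0.495 FPKM (ENSMUST00000129707). The median share of the 7 genes was 16.6% with Musclin and 19.1% with vehicle.

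Of 11 members from NF-kB target and chemokine genes 4 were higher and 1 was lower (median 0.52). Besides the chemokines named above, Nfkb1, which encodes a subunit of NF-kB, had a higher member (ENSMUST00000129428) at 1.79 and 0.126 FPKM. The lower one was from Cxcl12 (ENSMUST00000134244), a chemokine of stromal cells, at 27.6 and 59.3 FPKM. In genes of chaperones and folding in the endoplasmic reticulum 10 of 12 members were above 0 and 2 of them past 2-fold, with a median of 0.51 beside a coding median of 0.50. These were a member of the ubiquitin ligase gene Syvn1 (ENSMUST00000235478) at 4.16 and 0.0294 FPKM, on 365 against 3 fragment equivalents with a ratio of 141 (95% interval 41.7 to 599), and one of the disulfide isomerase gene Pdia6 (ENSMUST00000162936) at 1.92 and 0.386 FPKM. In Syvn1 the coding transcripts were at 13.1 and 9.53 FPKM, within 2-fold.

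Hypoxia and glycolysis genes held 29 members, 23 of them above 0, with 3 higher, 1 lower (Tpi1) and a median of 0.33. The higher ones were a P4ha2 member (ENSMUST00000125651), from a prolyl hydroxylase of collagen, at 8.52 and 3.61 FPKM and members of the lactate dehydrogenase gene Ldha at 3.24 and 1.12 FPKM (ENSMUST00000210198) and 1.21 and 0.0552 FPKM (ENSMUST00000124696). Matrix genes held 36 members with 1 higher (the same P4ha2 member), 2 lower and a median of 0.20. The lower ones came from the proteoglycan gene Bgn (ENSMUST00000141945), at 5.01 and 17.6 FPKM beside coding transcripts at 1807 and 1990 FPKM, and from the metalloproteinase gene Mmp11 (ENSMUST00000133897), at 0.761 and 3.32 FPKM. In Ltbp3, which encodes a binding protein of latent TGF-beta, a member (ENSMUST00000237280) was at 15.0 and 7.44 FPKM and the coding transcripts were at 8.89 and 22.4 FPKM.

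Of the other lists 1 lay apart from 0, with 3 members from cholesterol synthesis genes that were all above 0 and within 2-fold, and a median of 0.35 beside a coding median of 0.44. Cytoskeleton genes had 28 members with 2 higher, Ilk (ENSMUST00000152508, 1.53 and 0.0102 FPKM) and Myl6 (ENSMUST00000219554, 18.1 and 8.05 FPKM), none lower and a median of 0.09. Autophagy and lysosome genes had 30 with 1 higher, from the Rab regulator gene Tbc1d17 (ENSMUST00000130081, 5.13 and 1.92 FPKM), and a median of -0.15. The 12 members from cell cycle genes (median -0.03) and the 15 from glutathione and oxidative stress genes (median -0.02) were all within 2-fold. The widest of the cell cycle list was that of the replication licensing gene Cdt1 (ENSMUST00000212967), at 3.67 and 8.05 FPKM, whose coding transcripts were at 7.53 and 16.4 FPKM.

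Members of one gene did not always lie on the same side, and they share reads. Of 503 genes with more than 1 member 3 had members past 2-fold in both directions. In Mybbp1a, which encodes a nucleolar protein, a member (ENSMUST00000162048) was at 27.8 FPKM with Musclin and 11.3 with vehicle, and another (ENSMUST00000152894) at 12.4 and 25.8 FPKM. In Rasa4, a Ras GTPase activator gene, the pair was at 2.64 and 0.00433 FPKM (ENSMUST00000134509) and at 0.905 and 3.96 FPKM (ENSMUST00000135344). Snrnp70, given above, was the third. In Mybbp1a the coding transcripts were at 28.4 and 25.1 FPKM and in Snrnp70 at 75.5 and 79.99 FPKM, within 2-fold in both.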

How the data were processed

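Transcript values were taken from the authors' deposited table, which gives FPKM per transcript and condition, per the file headers. StringTie, DESeq2 and edgeR are listed in the submitters' processing notes, with neither role nor version, and the aligner, genome build and annotation release are not named in the sources used here. The authors also deposited a fold ratio, its log2, a p-value and a q-value, and which test gave these is not named either. No raw counts were used.

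Log2 ratios were computed on FPKM plus a pseudocount of 1, with a limit of 2-fold and a floor of 1 FPKM. No test was run, as each group has 1 library. Depth was worked out from the steps of FPKM times length in single-exon genes with 1 transcript, where 73.7% of 4381 values with Musclin and 73.9% of 4304 with vehicle were whole numbers of bases within 0.1. It gave the fragment equivalents behind the 95% intervals, whose PCR duplicates are unknown, so they cover counting error only. Exons, introns and sequences came from GENCODE vM21 (GRCm38), in which 88029 of 88702 transcripts were found and 87771 had the same ends, so positions are given on that build.

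Named were the 12 most abundant members, the 10 with the highest and 10 with the lowest ratio at 3 FPKM or more, the 8 genes at each end of the difference from the coding ratio, 6 genes with the highest share, up to 4 members per list by absolute ratio, and those next to the floor. Predicted genes were counted and not named, and some genes met this rule but are left out of the text. Genes with members in both directions, further Ogt transcripts, Ddit3, Atf4, Cxcl12 and the members of the closing observations were chosen after their values were seen. The members and the 24 gene lists were chosen with earlier results of these data known. The procedure was tested on simulated data. Python 3.11.15 with pandas 2.3.3, numpy 2.4.6, scipy 1.17.1 and matplotlib 3.10.9 was used. Alternatives were other pseudocounts, floors, scalings, fold limits and subsets of members.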

Additional observations from a re-analysis of the deposited data

How the results depend on the processing

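Counts depended on the pseudocount, the fold limit and the floor. Rescaling to TPM raised the values of both libraries by nearly the same factor while the pseudocount stayed at 1. Its counts therefore largely repeat the effect of a smaller pseudocount. Members 2-fold higher and lower numbered 232 and 217 at a pseudocount of 0.1, 16 and 17 at 5, 40 and 38 at a floor of 5 FPKM, 251 and 258 at a 1.5-fold limit, and 161 and 163 after rescaling to TPM. They were 49 and 48 among members with at least 20% of their bases outside coding exons, an alternative chosen after seeing the data, and 62 were lower among members covering a whole intron. Genes whose ratio exceeded the coding ratio by the limit, and those below it, numbered 173 and 158 at 0.1, 28 and 28 at 5, 40 and 36 at the 5 FPKM floor, 231 and 202 at 1.5-fold, and 55 and 54 with 20% own bases. The upward genes were 143 with no floor and 139 in TPM.

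List members higher and lower were 46 and 39 at 0.1 and 3 and 4 at 5, against 23 and 21. Members past 2-fold whose coding sum was within 2-fold, past it the same way and past it the opposite way numbered 137, 33 and 15. They were 351, 65 and 24 at 0.1, 24, 6 and 3 at 5, 59, 11 and 7 at the 5 FPKM floor, and 248 and 52 (the first 2) in TPM. The median log2 ratio of members was -0.0066 at the 5 FPKM floor and 0.0275 after scaling all genes to a median of 0, a shift of -0.02. The median share with Musclin and vehicle was 4.0% and 3.88% with no floor, 9.77% and 9.70% with 20% own bases, 14.1% and 13.8% at a mean of 1 FPKM, 16.1% and 16.1% at 50 fragment equivalents, 16.1% and 16.4% for whole introns, and 29.2% and 29.3% at the 5 FPKM floor. Of 110 named members 14 crossed the 2-fold limit at 0.1, 33 at 5 and 9 in TPM. No named member past 2-fold changed direction. A pseudocount cannot change the direction, and the scalings moved both libraries almost alike, so this lends the directions no support. Over the lists 63 counts stayed within 1.5 times and 33 moved. No paired analysis was possible because each group has 1 library.

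The main limits are the single library per group, the vehicle column assigned by elimination, and levels that rest on the authors' division of reads among overlapping transcripts. Members near 1 FPKM can rest on under 50 fragment equivalents, where the interval of a ratio is wide.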

Other observations

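Retained-intron members also came from host genes of small RNAs. Gas5, a growth arrest transcript that hosts small nucleolar RNAs and has no coding transcript in the table, had 8 members, the most of any gene. Its most abundant one (ENSMUST00000161229) was at 12.5 FPKM with Musclin and 11.2 with vehicle, and all 8 were within 2-fold. In coding genes, 38 members of 28 genes kept an intron that holds an annotated small nucleolar, Cajal body or micro RNA. Of these 1 was 2-fold or more higher (Hspa8) and none lower, with a median log2 ratio of 0.01. Ppan, a ribosome assembly gene, had one (ENSMUST00000147780) at 7.85 and 3.49 FPKM, just inside the limit.

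The 4 retained introns with AT and AC ends are of the kind that the minor spliceosome removes. The Rnf123 member (ENSMUST00000161673) with such an intron of 389 bases was at 0.263 FPKM with Musclin and 1.25 with vehicle. The Ift80 member (ENSMUST00000136448), with an intron of 3537 bases in a gene of ciliary transport, was at 2.49 and 0.879 FPKM. E2f6 (ENSMUST00000220707) was at 0.917 and 1.28 FPKM and the primase gene Prim1 (ENSMUST00000133285) at 2.28 and 2.66 FPKM. All 4 were within 2-fold and they lay on both sides of a ratio of 1.

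Large ratios and the authors' calls did not always go together. In the authors' deposited table the members of Alas1, Cpne1, Plcb3, Hsp90ab1, Tbl3, Apeh and Pfdn6 have a p-value of 1. In the authors' deposited table the Shisa5 member has a q-value of 8.23e-40 and the Dnajc8 member one of 3.49e-37.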
